A study of Rattus norvegicus with 18 samples.

Results

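The genes described here encode ionotropic glutamate receptors, the ion channels that glutamate opens. They were chosen by symbol, and all 10 (Gria1 to Gria4, Grik1 to Grik5 and Grin1) were found once among the 25678 genes of the count table and passed the filter on low counts. Messenger RNA of dorsal root ganglia of rats was sequenced in 18 libraries, which fall into 6 groups of 3. The study set out to find how Shentong Zhuyu decoction, a traditional Chinese preparation of 12 ingredients, acts in a rat model of neuropathic pain. The groups are named by the state of the animals and by their treatment. Ctrl is labelled Ctrl for both state and treatment, and Ctrl_solvent is the Ctrl state with solvent. Sham_solvent and Sham_herb had the sham state with solvent or with the decoction, and NPP_solvent and NPP_herb had the neuropathic pain model with solvent or with the decoction. Strain, age, sex, the procedure behind the model, dose and sampling time are not in the labels. Whether replicates are different animals is not stated either. The p-values therefore weigh differences between groups against the spread of these samples. How much of that spread is technical cannot be told.

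Ionotropic glutamate receptors are assemblies of subunits from 3 families, named after the agonists AMPA, kainate and NMDA. AMPA receptors carry most fast excitatory transmission in the central nervous system, and kainate and NMDA receptors modulate it and shape its plasticity. In dorsal root ganglia the glutamatergic cells are the sensory neurons themselves, and receptors made there can be carried to their terminals in the spinal cord and the skin. The tables give reads per gene, so splice forms, RNA editing and protein are not covered by these values.

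Libraries held from 18.2 to 50.3 (×1e6) counted reads, with a median of 28.4 (×1e6), and the receptor genes together took from 0.0244% to 0.0354% of them. Markers of sensory neurons summed to between 13100 and 16960 CPM (counts scaled to library size) in every library, and markers of spinal cord neurons and central glia to between 1.40 and 15.6 CPM, with at most 4 reads of Slc32a1 and 3 of Olig1 in any library but 9 to 466 reads of Aqp4 (median 206) and 16 to 132 of Gad1. Of the marker lists, that of red blood cells had the largest ratio of highest to lowest summed level, from 2.97 to 618 CPM. Satellite glia (3704 to 7937 CPM) and myelinating Schwann cells (9344 to 15930 CPM) were also present. In such bulk tissue, fewer cells of a type and less RNA per cell cannot be told apart. In Ctrl replicates 2 and 3 the Y-linked genes Eif2s3y, Kdm5d, Ddx3y and Uty had 32 and 148 reads together, against 2647 to 7970 in the other 16 libraries. For Ctrl_solvent against Ctrl, the values of Grin1, Grik1 and Gria2 are also given without Ctrl replicates 2 and 3. Other results that involve Ctrl include them.

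Grik1 and Grin1 had the highest levels, in that order, in every library. Levels of different genes are compared in FPKM, reads scaled by the authors to gene length and library size. Grik1 had the highest level of the 10 genes at 23.6 ± 3.12 FPKM (SD, n = 18), followed by Grin1 at 14.7 ± 2.47 FPKM. Grik1 was above Grin1 in 18 of 18 libraries, by 1.31 to 1.96 times, and Grin1 was above Grik5, the next gene, in 18 of 18 by 2.98 to 5.18 times. Grik5 (3.53 ± 0.536 FPKM), Gria2 (2.45 ± 0.525), Gria4 (2.04 ± 0.464), Grik2 (1.99 ± 0.595), Grik4 (1.61 ± 0.251) and Gria3 (1.36 ± 0.215) came next. Among these 6 genes no neighbours in the order were separated in every library. Grik5 was above Gria2 in 16 of 18 libraries, Gria2 above Gria4 in 16, Gria4 above Grik2 in 10, Grik2 above Grik4 in 12 and Grik4 above Gria3 in 15. Grik3 (0.899 ± 0.268 FPKM) was below Gria3 and above Gria1 in 18 of 18, and Gria1 was lowest at 0.388 ± 0.158 FPKM. Grik1 stood above 84.8% and Gria1 above 18.5% of all genes tested.

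**Figure D1:**
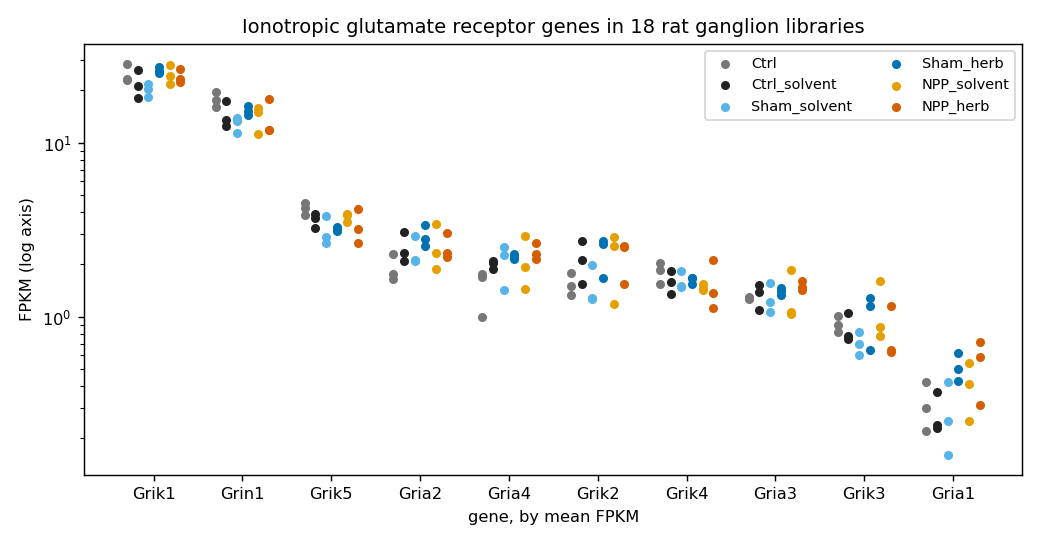
Level of each receptor gene (FPKM, log axis) in the 18 libraries, 1 point per library, coloured by group, with genes ordered by their mean. Grik1 and Grin1 lie above all other members in every library, the middle 6 genes overlap, and Gria1 is lowest, between 0.16 and 0.72 FPKM.

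The 250 bases before the start of Grik1 and Grin1 are shown because these were the members with the highest levels. They come from RefSeq on the build GRCr8, which is not the build of the tables, and 7 of the 10 genes had an entry (all but Gria1, Gria2 and Gria3). Grik1 lies on the minus strand at chr11:41056504-41056753 and Grin1 on the minus strand at chr3:28528755-28529004. Capitals mark CG dinucleotides, which number 8 in Grik1 and 19 in Grin1.
Grik1: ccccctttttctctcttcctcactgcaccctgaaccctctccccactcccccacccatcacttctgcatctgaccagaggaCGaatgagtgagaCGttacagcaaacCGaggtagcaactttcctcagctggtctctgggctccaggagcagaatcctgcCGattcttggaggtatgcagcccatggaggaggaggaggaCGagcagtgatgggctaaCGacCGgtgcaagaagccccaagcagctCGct
Grin1: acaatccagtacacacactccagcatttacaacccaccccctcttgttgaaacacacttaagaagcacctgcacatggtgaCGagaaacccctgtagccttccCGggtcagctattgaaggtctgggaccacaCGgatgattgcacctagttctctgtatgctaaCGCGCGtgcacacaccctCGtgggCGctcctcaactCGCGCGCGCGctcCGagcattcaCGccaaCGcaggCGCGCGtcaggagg
Both windows have a GC content of 57.6%, but their observed-to-expected CG ratios are 0.39 and 0.95. Among the 33465 promoters of the same length the median GC content was 51.2% and the median number of CG dinucleotides 5. The window of Grik3 was the most GC-rich of the 7, with 81.6% GC, 41 CG dinucleotides and 5 copies of GGGCGG (either strand), a hexamer held by 30.5% of all promoters. CAGCTG, the core of an E box (the same on both strands), occurs in the windows of Grik1 and Gria4 and in 12.0% of all promoters. TATAAA and TGACGTCA (either strand), held by 12.9% and 1.6% of all promoters, were in none (0) of the 7 windows.

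Kainate receptor genes made up most of the receptor messenger RNA in the ganglia. The 5 kainate genes summed to between 24.7 and 37.8 FPKM in a library, the 4 AMPA genes to between 4.17 and 8.58 FPKM, and the ratio of kainate to AMPA ran from 3.9 to 7.5 with a median of 4.95. Grik1 alone exceeded the sum of the 4 AMPA genes in 18 of 18 libraries, by 2.92 to 5.54 times. Grik1 encodes a subunit that forms kainate receptors on its own and is the classical kainate receptor subunit of small-diameter sensory neurons. It made up 74.6 ± 2.08% (SD, n = 18) of summed kainate FPKM, with a range of 70.0 to 78.9%.

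In CPM, scaled with TMM factors, Grik1 had 128, 125.5 and 159 in Ctrl replicates 1 to 3 and 97.8, 143.4 and 111.5 in Ctrl_solvent. It had 117.4, 117.7 and 100.6 in Sham_solvent and 142.8, 145.7 and 139.1 in Sham_herb. It had 119.8, 133.2 and 152 in NPP_solvent and 126.1, 125.4 and 143.1 in NPP_herb. The 3 Sham_solvent libraries all lay below every Sham_herb, NPP_solvent and NPP_herb library, and the widest spread was in Ctrl_solvent. The ratio of the highest to the lowest library was 1.63, the smallest of the 10 genes.

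The other kainate subunits were minor components of the pool. Grik5 and Grik4 encode high-affinity subunits that form working channels only together with Grik1, Grik2 or Grik3 subunits, and they made up 11.2 ± 1.53% and 5.12 ± 0.734% of kainate FPKM. Grik2 and Grik3, whose subunits can form channels alone, made up 6.27 ± 1.62% and 2.82 ± 0.616%. Grik2 had 4.67, 6.72 and 4.36 CPM in Sham_solvent, 5.75, 9.10 and 9.02 in Sham_herb, 8.75, 4.02 and 9.70 in NPP_solvent and 8.54, 5.41 and 8.53 in NPP_herb. Grik2 was 4.67 to 6.22 CPM in Ctrl and 5.19 to 8.92 CPM in Ctrl_solvent, so each of the 6 groups overlapped others, and NPP_solvent held both its highest and its lowest library.

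Grik3 had 6.62, 8.48 and 7.29 CPM in Sham_solvent and 9.09, 8.11 and 16.4 in NPP_solvent. It had 12.1, 13.1 and 6.67 CPM in Sham_herb and 6.45, 6.80 and 11.8 in NPP_herb. Each of these groups had 1 library far from its other 2, other than Sham_solvent, and no pair of them was separated. In Ctrl and Ctrl_solvent the level of Grik3 was 8.69 to 10.6 and 7.68 to 10.5 CPM. Grik4 ran from 14.2 to 25.5 CPM and Grik5 from 14.3 to 24.7 CPM over the 18 libraries, and the group means of Grik4 lay between 18.1 ± 0.740 (NPP_solvent) and 22.4 ± 3.34 CPM (Ctrl) and those of Grik5 between 17.2 ± 0.680 (Sham_herb) and 22.8 ± 1.85 CPM (Ctrl), with SD over 3 libraries.

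Grin1 encodes the subunit that binds glycine and that every NMDA receptor contains. Its level was 86.9, 76.8 and 96.9 CPM in Ctrl, 59.9, 84.0 and 62.8 in Ctrl_solvent, 58.1, 66.6 and 64.5 in Sham_solvent and 78.8, 68.8 and 74.0 in Sham_herb. In NPP_solvent it was 54.8, 73.4 and 75.9 CPM and in NPP_herb 57.1, 59.2 and 85.5 CPM. The 3 Ctrl libraries lay above those of Sham_solvent and NPP_solvent but overlapped those of Ctrl_solvent, Sham_herb and NPP_herb. Sham_herb lay above Sham_solvent without overlap.

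The glutamate-binding partners of Grin1 were scarce per length. Grin2a to Grin2d together had 0.09 to 0.28 FPKM in a library, so Grin1 was above their sum by 45 to 161 times (median 71.3). The most abundant of them, Grin2b, had 0.0928 ± 0.0461 FPKM, a value that divides its 2.51 CPM by a gene length of 26.8 kb as implied by the tables, and Grin2a and Grin2c had at most 8 reads in any library and were not tested. Grin3a and Grin3b encode glycine-binding subunits that can join NMDA receptors. Grin3a had 0.845 ± 0.173 FPKM and Grin1 was above the summed Grin3a and Grin3b by 9.29 to 22 times.

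AMPA receptor genes formed a more even pool. Gria2, whose edited subunit makes AMPA receptors nearly impermeable to calcium, made up 39.3 ± 3.28% (SD, n = 18) of summed AMPA FPKM, with a range of 31.8 to 44.5%. Gria4 made up 32.5 ± 3.60%, Gria3 22.0 ± 2.76% and Gria1 6.12 ± 1.92%, each encoding a subunit that forms channels permeable to calcium where Gria2 is missing from the assembly. Gria2 had 13.8, 12.6 and 17.9 CPM in Ctrl, 15.9, 23.5 and 17.1 in Ctrl_solvent, 16.9, 22.1 and 16.2 in Sham_solvent and 21.4, 25.2 and 19.6 in Sham_herb. It had 17.8, 14.5 and 25.9 CPM in NPP_solvent and 16.7, 18.4 and 22.8 in NPP_herb. In Gria2 the 3 Ctrl libraries lay below the 3 of Sham_herb, and every other pair of groups overlapped.

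Gria1, the least abundant member, had 14 to 82 reads in a library. It had 1.44, 0.727 and 1.01 CPM in Ctrl, 0.757, 0.812 and 1.18 in Ctrl_solvent, 0.569, 1.39 and 0.844 in Sham_solvent and 1.68, 2.01 and 1.44 in Sham_herb. It had 1.80, 0.832 and 1.36 CPM in NPP_solvent and 1.93, 1.06 and 2.34 in NPP_herb. The Sham_herb libraries all lay above the Sham_solvent libraries, the closest pair at 1.44 and 1.39 CPM. At the median of 33.5 reads, counting error alone is 17.3% of the level, against a coefficient of variation of 39.5% over the 18 libraries. Gria3 ran from 6.38 to 11.2 CPM and Gria4 from 6.26 to 18.3 CPM, and in both the highest library was NPP_solvent replicate 3.

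**Figure D2:**
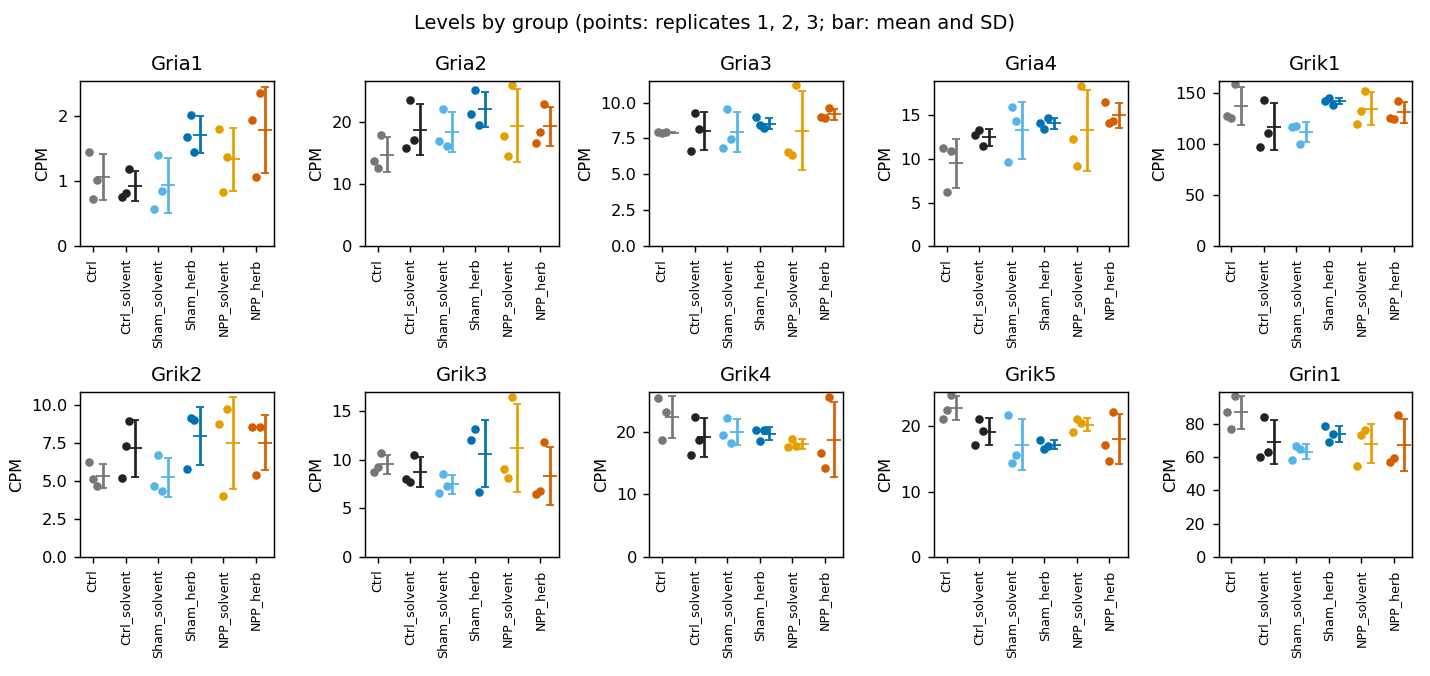
Level of each gene (CPM, axis from 0) by group, with 1 point per replicate and a bar for the mean and SD of the 3 libraries. Most groups overlap, and the Sham_solvent points of Grik1 (100.6 to 117.7 CPM) lie below those of Sham_herb (139.1 to 145.7 CPM).

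The shares of Gria2 and Grik1, the leading genes of the AMPA and kainate pools, were tested between NPP and Sham and between the decoction and solvent, and 0 of these 4 tests passed. Gria2 made up 38.2 ± 3.31% of AMPA FPKM in the NPP libraries and 40.4 ± 3.28% in the Sham libraries (SD, n = 6 each), a difference of -2.21 percentage points with p = 0.29 in an exact 2-sided permutation test within treatments. Between the decoction and solvent the difference was -1.29 points (exact permutation p = 0.545). The share of Grik1 in kainate FPKM was 74.9 ± 2.51% in NPP and 75.2 ± 1.15% in Sham (-0.301 points, exact permutation p = 0.785), and 75.9 ± 2.05% with the decoction and 74.3 ± 1.42% with solvent (1.55 points, exact permutation p = 0.18). Adjusted over these 4 tests the p-values ran from 0.58 to 0.785, and the smallest p that the 400 arrangements allow is 0.005. The shares of the other genes and those of single groups were not tested. Some groups did not overlap in them, such as Grik4 at 5.49 to 6.35% of kainate FPKM in Sham_solvent, 4.299 to 4.978% in Sham_herb and 3.89 to 4.88% in NPP_solvent. Gria1 made up 3.38 to 5.65% of AMPA FPKM in Sham_solvent and 6.51 to 8.23% in Sham_herb, and Grik1 73.8 to 74.8% and 75.8 to 76.9% of kainate FPKM in the same groups. Grik5 made up 8.71 to 9.76% of kainate FPKM in Sham_herb and 12.1 to 13.4% in Ctrl. These groups were picked after their values were seen, out of all genes of the 2 families and all pairs of groups. How many pairs separate in share was not counted, so no background stands beside them. For levels, 14.6% of all genes did not overlap between Sham_herb and Sham_solvent. Shares within a family add up to the whole, so they are not independent of each other.

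**Figure D3:**
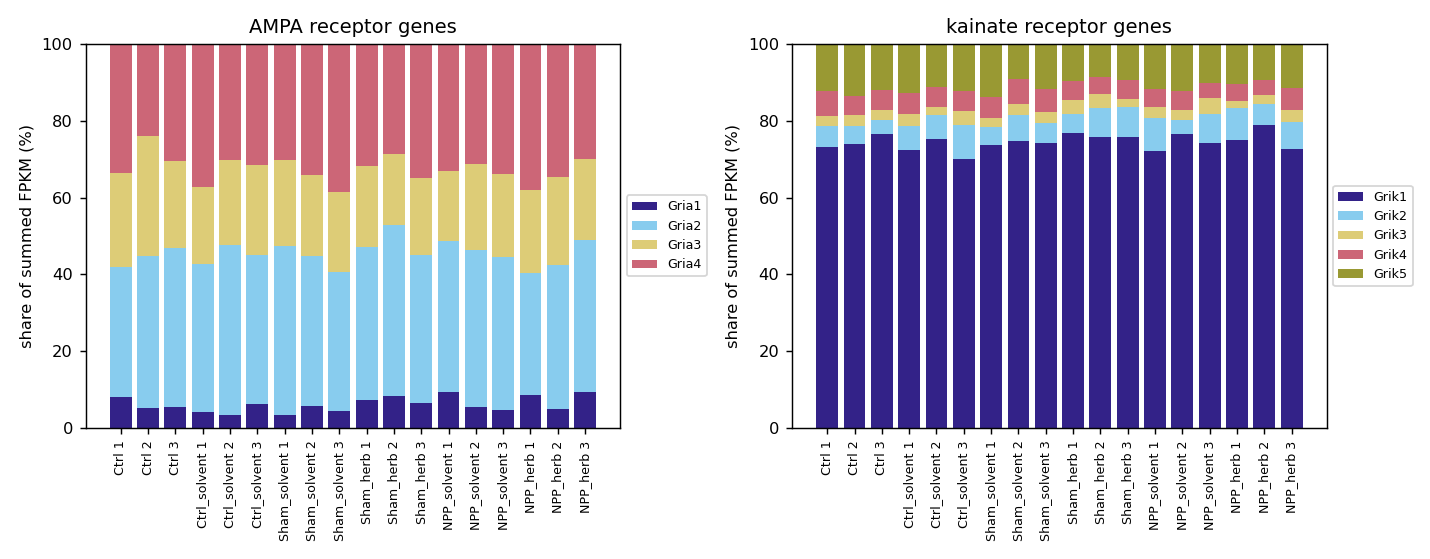
Share of each gene in the summed FPKM of its family (percent, stacked to 100) in the 18 libraries, AMPA genes on the left and kainate genes on the right. Grik1 takes between 70.0 and 78.9% of the kainate pool in every library, and Gria2 between 31.8 and 44.5% of the AMPA pool.

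NPP_solvent was compared with Sham_solvent to see the pain model without the decoction. In the quasi-likelihood F test of edgeR over 17043 genes, 0 of 10 members and 0% of all genes passed an adjusted p of 0.05, and DESeq2 and limma also called 0 genes. At an unadjusted p under 0.05 there were 0 members and 967 genes (5.67%). The level was higher in NPP_solvent for 8 of 10 members and for 51.3% of all genes, with a median log2 fold change of 0.17 for the members and 0.01 for all genes. Grik1 was 135.0 ± 16.2 CPM in NPP_solvent and 111.9 ± 9.80 in Sham_solvent, a log2 fold change of 0.27 (SE 0.13, 95% interval -0.01 to 0.55, adjusted p = 0.755). It was the only member whose groups did not overlap, as was the case for 8.11% of all genes. Grik3 had a log2 fold change of 0.59 (interval -0.02 to 1.20) and Grik2 of 0.51 (interval -0.13 to 1.14), both with overlapping groups. The interval of Gria2 was -0.37 to 0.52 and that of Grin1 -0.23 to 0.45. Markers of nociceptors, the pain-sensing neurons, were higher in NPP_solvent for 9 of 9 genes with a median log2 fold change of 0.24. Those of sensory neurons in general were higher for 7 of 11 (median 0.02) and those of large-diameter neurons for 3 of 9 (median -0.06). Nonmyelinating Schwann cell markers were higher for 5 of 5 (median 0.27) and red blood cell markers for 0 of 5 (median -2.02). The part of these cells in the levels of the receptor genes was not tested.

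For NPP_herb against NPP_solvent, the decoction within the model, the members were evenly split, 5 of 10 higher against 47.7% of all genes, with a median log2 fold change of -0.00. No member (0 of 10) and no gene (0%) passed the adjusted threshold of edgeR, DESeq2 called 1 gene that was not a member, and at an unadjusted p under 0.05 there were 0 members and 319 genes (1.87%). The groups overlapped for all 10 members and did not for 5.3% of all genes. Grik3 was 8.34 ± 2.99 CPM in NPP_herb and 11.2 ± 4.55 in NPP_solvent (log2 fold change -0.42, interval -1.03 to 0.19). Gria1 was 1.78 ± 0.655 and 1.33 ± 0.482 CPM (0.43, interval -0.40 to 1.27), and Grik5 was 18.03 ± 3.80 and 20.3 ± 1.04 CPM (-0.16, interval -0.50 to 0.17). The most abundant members were close, with Grik1 at 131.5 ± 10.01 and 135.0 ± 16.2 CPM (interval -0.32 to 0.24) and Grin1 at 67.2 ± 15.8 and 68.1 ± 11.5 CPM (interval -0.36 to 0.33). Red blood cell markers were higher in NPP_herb for 5 of 5 genes (median log2 fold change 2.33) and macrophage markers for 1 of 9 (median -0.47), and their part in these values was not tested.

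Sham_herb was compared with Sham_solvent to see the decoction without the model, and this comparison shares the 3 Sham_solvent libraries with the first comparison. Of the members, 8 of 10 were higher in Sham_herb, as were 50.7% of all genes, with a median log2 fold change of 0.24 for the members and 0.01 for all genes. Grik1 was 142.5 ± 3.29 CPM in Sham_herb and 111.9 ± 9.80 in Sham_solvent, a log2 fold change of 0.35 (SE 0.13, interval 0.07 to 0.63), and its adjusted p was 0.491. Gria1 was 1.71 ± 0.287 and 0.936 ± 0.420 CPM (0.84, interval -0.00 to 1.68), and Grik2 was 7.96 ± 1.91 and 5.25 ± 1.28 CPM (0.59, interval -0.04 to 1.23). The groups did not overlap for Gria1, Grik1 and Grin1, 3 of 10 members, against 14.6% of all genes, and all 3 were higher in Sham_herb, as 8.52% of all genes were. In edgeR 0 of 10 members and 0% of all genes passed the adjusted threshold, DESeq2 and limma called 0 genes, and at an unadjusted p under 0.05 there were 1 member and 1686 genes (9.89%). Without Sham_solvent replicate 2, 485 genes passed, none of them a member, and Gria1 had a log2 fold change of 1.25 and an adjusted p of 0.108. Nociceptor markers were higher in Sham_herb for 7 of 9 genes (median log2 fold change 0.29). Those of sensory neurons in general were higher for 7 of 11 (median 0.09) and those of large-diameter neurons for 5 of 9 (median 0.06). Nonmyelinating Schwann cell markers were higher for 4 of 5 (median 0.36). Macrophage markers were higher for 0 of 9 (median -0.54) and red blood cell markers for 0 of 5 (median -2.55). The red blood cell markers summed to 87.3, 18.6 and 618 CPM in Sham_solvent and 26.4 to 51.8 CPM in Sham_herb. The part of these cells in the receptor levels was not tested.

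**Figure D4:**
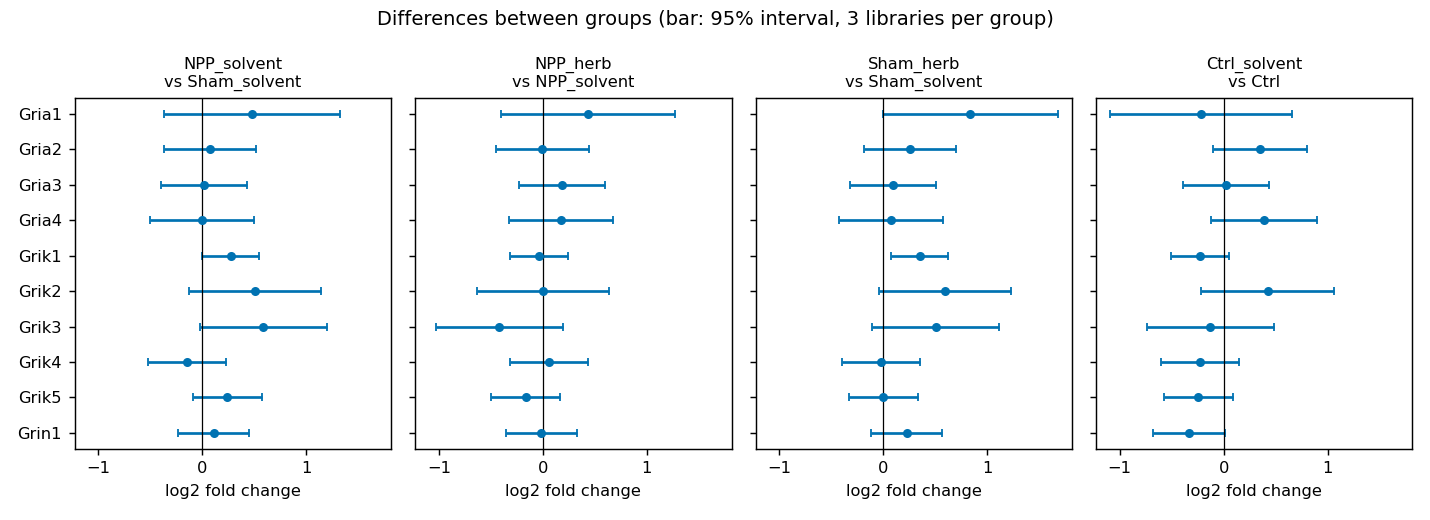
Fold change (log2) of the 10 genes in 4 comparisons of 3 against 3 libraries, with 95% intervals from edgeR and a line at 0. The interval of Grik1 in Sham_herb against Sham_solvent (0.07 to 0.63) is the only one that leaves out 0, and Gria1 has the widest intervals.

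The herb effect was lower in the NPP arm than in the Sham arm for 7 of 10 members when the difference of these effects was tested, and higher for 3 of 10 against 47.7% of all genes. By p-value Grik3 came first, with a difference of -0.92 on the log2 scale (interval -1.79 to -0.06, adjusted p = 0.92), followed by Grik1 at -0.39 (interval -0.78 to 0.01) and Grik2 at -0.59 (interval -1.49 to 0.31). At an unadjusted p under 0.05 there were 1 member and 580 genes (3.4%), and 0 of 10 members and 0% of genes passed in edgeR, while DESeq2 called 3 genes that were not members. With the NPP and Sham arms averaged, the level under the decoction was higher for 9 of 10 members and 49.9% of all genes. Gria1 had the smallest p there, with a log2 fold change of 0.64 (interval 0.04 to 1.23, adjusted p = 0.781), and it was the 1 member among 875 genes (5.13%) at an unadjusted p under 0.05. Grik1 had 0.16 (interval -0.04 to 0.35) and Grik2 0.30 (interval -0.15 to 0.75). In edgeR 0 members and 0% of genes passed, DESeq2 called 2 genes that were not members, and the groups did not separate for any member or for more than 0.199% of genes.

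Averaged over both treatments, NPP was above Sham for 7 of 10 members and 49.4% of all genes, and 0 members and 432 genes (2.53%) had an unadjusted p under 0.05 in edgeR, with 0 genes past the adjusted threshold in edgeR (0%), DESeq2 and limma. The groups did not separate for any member (0 of 10, against 0.123% of all genes). The log2 difference was 0.08 for Grik1 (interval -0.12 to 0.27) and -0.01 for Grin1 (interval -0.25 to 0.23). Grik5 had 0.16 (interval -0.08 to 0.39), Grik2 0.21 (interval -0.24 to 0.66) and Gria1 0.27 (interval -0.32 to 0.87). For NPP_herb against Sham_herb 4 of 10 members were higher, against 49.1% of all genes, with 0 members and 238 genes (1.4%) at an unadjusted p under 0.05 in edgeR and 0 genes (0%) past the adjusted threshold, against 2 in DESeq2. All 10 members overlapped between these groups, which 7.35% of all genes did not. The smallest p of a member was that of Grik3 (-0.34, interval -0.95 to 0.28), and Gria2 and Grik1 followed with -0.19 and -0.12. Red blood cell markers were higher in NPP_herb than in Sham_herb for 5 of 5 genes (median 3.24), and their part was not tested.

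For Ctrl_solvent against Ctrl, no receptor gene passed the test. Macrophage markers had higher levels in Ctrl_solvent for 9 of 9 genes with a median log2 fold change of 2.06, but 0 of 9 passed (smallest adjusted p = 0.122). Their summed level was 516 and 470 CPM in Ctrl_solvent replicates 1 and 3, 152 CPM in replicate 2 and 73.4 to 135 CPM in Ctrl, and their part in the receptor levels was not tested. Grin1 was 68.9 ± 13.1 CPM in Ctrl_solvent and 86.8 ± 10.04 in Ctrl (log2 fold change -0.33, interval -0.68 to 0.01, adjusted p = 0.401), and its value was -0.34 against Ctrl replicate 1 alone. Grik1 had -0.23 (interval -0.50 to 0.05) and Gria2 0.35 (interval -0.10 to 0.80), and -0.13 and 0.45 against Ctrl replicate 1 alone. The groups did not overlap for Gria4 alone, 1 of 10 members against 16.6% of all genes. Gria4 was 12.5 ± 0.946 CPM in Ctrl_solvent and 9.49 ± 2.80 in Ctrl. The closest libraries were Ctrl_solvent replicate 3 at 11.41 CPM and Ctrl replicate 1 at 11.27 CPM, and Ctrl replicate 2 had 6.255 CPM. The log2 fold change of Gria4 was 0.39, and 0.068 to 0.447 under the alternatives other than leaving out single libraries. Of the members 4 of 10 were higher, against 51.1% of all genes. In edgeR 0 of 10 members and 0% of genes passed and at an unadjusted p under 0.05 there were 0 members and 2218 genes (13%), and DESeq2 called 471 genes, none a member. Without Ctrl_solvent replicate 2 edgeR called 719 genes without Ctrl replicate 1 it called 21 and without Ctrl replicate 2 it called 2, none of them a member. Without Ctrl_solvent replicate 2, Grik1 had -0.39 (adjusted p = 0.0961) and Grin1 -0.50 (adjusted p = 0.112).

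For Sham_solvent against Ctrl_solvent 3 of 10 members were higher, against 48.4% of all genes, 0 members and 1043 genes (6.12%) had an unadjusted p under 0.05 in edgeR, and 0 members and 0% of genes passed. DESeq2 called 35 genes, and edgeR called 241 without Ctrl_solvent replicate 2, in neither case a member. Grik2 had the smallest p of a member, with 5.25 ± 1.28 CPM in Sham_solvent and 7.13 ± 1.87 in Ctrl_solvent (log2 fold change -0.44, interval -1.08 to 0.20). The groups overlapped for all 10 members and did not for 7.14% of all genes. A test of any difference among the 6 groups gave adjusted p-values from 0.545 (Gria1) to 0.938 (Gria3) for the members and no call among all genes (0%), with 1744 genes (10.2%) at an unadjusted p under 0.05 and 0 members. DESeq2 called 475 genes in that test, and edgeR called 305 without Ctrl_solvent replicate 2, 12 without Ctrl replicate 1 and 3 without Sham_herb replicate 2, none of them a member.

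The number of members above their mean over all libraries differed between single libraries. NPP_herb replicate 3 was above the mean over all libraries in 10 of 10 members and NPP_solvent replicate 3 in 9, and Ctrl_solvent replicate 1 and Sham_solvent replicate 3 were above it in 1. The count was 8, 7 and 8 in Sham_herb, 4, 3 and 5 in Ctrl, and between 2 and 8 in the other 8 libraries. NPP_solvent replicate 3 held the highest level of Gria2, Gria3, Gria4, Grik2 and Grik3, and Ctrl replicate 3 that of Grik1, Grik5 and Grin1. The spread not due to counting, the biological coefficient of variation of edgeR, was lowest for Grik1 (12.5%) and highest for Gria1 (31.9%), against a median of 17.1% over all genes.

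Libraries differed in how level depended on gene length. The log2 CPM of each gene, minus its mean over the 18 libraries, was fitted against log2 gene length. The resulting slope of a library is thus relative to the average library. It ran from -0.155 in Sham_solvent replicate 1 to 0.128 in NPP_solvent replicate 3. With this slope as a term beside the groups in edgeR, added after seeing the data, 6 of 10 members passed an adjusted p of 0.05, all with higher levels at higher slopes, as did 26.8% of all genes, or 13.4% in that direction. The change per SD of the slope (0.0777) was 0.38 for Gria1, 0.30 for Grik2, 0.28 for Grik3, 0.23 for Gria2, 0.23 for Gria4 and 0.20 for Gria3 on the log2 scale, with adjusted p from 0.00244 (Gria2) to 0.034 (Gria1). All 4 AMPA genes were thus among those that passed. Grik4 (0.13, adjusted p = 0.0937), Grin1 (0.12, 0.113), Grik1 (0.09, 0.0999) and Grik5 (-0.01, 0.941) did not pass. With each library left out in turn Gria2 passed in 18 of 18 fits, Gria3 in 17, Grik2 in 16, Gria4 and Grik3 in 15 and Gria1 in 13, and the fits that lost a call were those without NPP_herb replicate 2 or 3, NPP_solvent replicate 2 or 3 or Sham_solvent replicate 1 or 2. Grik1 passed without Sham_solvent replicate 1 and Grin1 without NPP_solvent replicate 2, and over all genes 4576 calls became 2836 without Sham_solvent replicate 2. With total reads as a further term Grik2 alone of the members passed (adjusted p = 0.0135). The slope comes from the same table as the levels, and the genes' implied lengths ran from 3.34 kb (Gria1) to 12.2 kb (Grik4), against a median of 3.78 kb over all genes. Gria1 and Grik2 (3.42 kb), with the largest coefficients, were shorter than that median. The other members that passed were of 6.11 kb (Gria3) to 10.4 kb (Grik3). Those that did not pass were of 4.86 kb (Grin1) to 12.2 kb (Grik4).

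**Figure D5:**
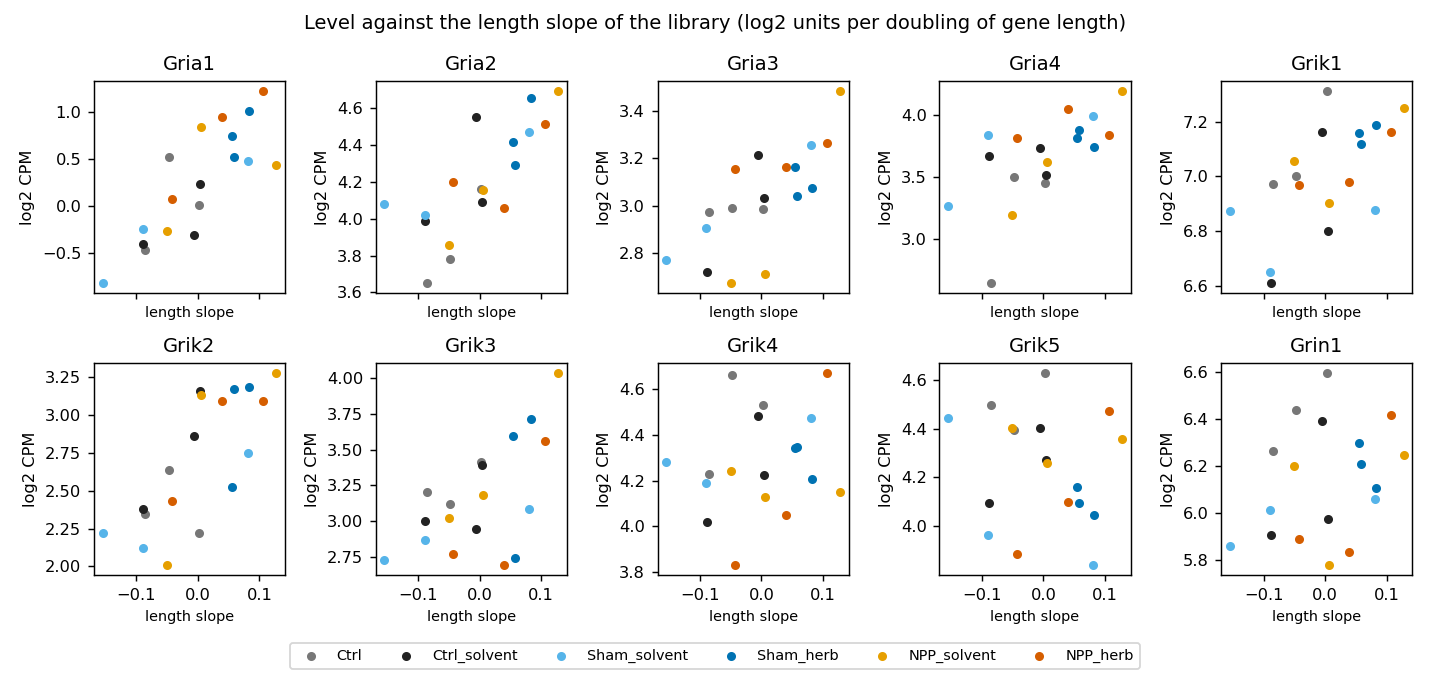
Level of each gene (log2 CPM) against the length slope of its library (log2 units per doubling of gene length), 1 point per library, coloured by group. The AMPA genes, Grik2 and Grik3 have higher levels at higher slopes, and the Sham_solvent libraries lie at slopes of -0.155, -0.0894 and 0.0809.

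The slope moves with some of the groups compared. It was 0.0548, 0.0828 and 0.0582 in Sham_herb, and -0.155, 0.0809 and -0.0894 in Sham_solvent. With the slope as a covariate the log2 fold change of Grik1 between these groups was 0.20 in place of 0.35, that of Gria1 0.36 in place of 0.84 and that of Grik2 0.16 in place of 0.59 (adjusted p = 0.999 each). For NPP_solvent against Sham_solvent the value of Grik1 was 0.17 in place of 0.27, that of Grik2 0.17 in place of 0.51 and that of Grik3 0.24 in place of 0.59. Some members changed sign. Gria2 was -0.195 in place of 0.07 and Grin1 -0.013 in place of 0.11 in that comparison. Gria2 also changed sign for Sham_herb against Sham_solvent, to -0.092 in place of 0.26. The difference of the herb effects between the arms was -0.50 in place of -0.92 for Grik3, and the averaged herb effect on Gria1 was 0.36 in place of 0.64. With the score of sensory neuron markers as a covariate instead, the value of Grik1 for Sham_herb against Sham_solvent was 0.33, and the score itself was called for 0 of 10 members and 0% of genes (9.55% at an unadjusted p under 0.05). Total reads, fitted the same way, gave 4 of 10 members with higher levels in deeper libraries (Gria2, Grik1, Grik4 and Grin1, by 0.12 to 0.21 on the log2 scale per SD), against 8% of all genes and 4.58% in that direction. With each library left out in turn Grik4 and Grin1 passed in 17 of 18 fits, Gria2 in 13 and Grik1 in 8. The calls over all genes fell from 1364 to 245 without NPP_herb replicate 3, to 647 without Sham_solvent replicate 2, to 746 without Sham_solvent replicate 1, to 765 without Ctrl_solvent replicate 1, to 777 without NPP_herb replicate 2 and to 1 without group terms, where none of these 4 members passed.

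Over the 18 libraries the genes whose log2 CPM followed that of Grik1 most closely among 13234 other named genes were Camk2a, a calcium-dependent kinase (Pearson r = 0.964), Wipf3 (0.941) and Phf24 (0.894). For Grin1 they were Amigo3 (0.93), Brsk2, a kinase of neuronal polarity (0.917), and Pacsin1, a protein of membrane recycling (0.913). For Gria2 they were Braf (0.877), Sgms2 (0.875) and Usp9x (0.868). These are descriptions over libraries that share group, depth and length slope. With group means removed the r of Camk2a with Grik1 was 0.937 and that of Braf with Gria2 was 0.898. Camk2a was 83.8 ± 5.26 CPM in Sham_herb and 52.6 ± 7.04 in Sham_solvent, with an adjusted p of 0.491 in edgeR.

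Other genes of glutamate signalling were taken from lists, and none of their members (0%) passed edgeR's adjusted threshold in any comparison. Of the other NMDA and delta receptor subunits 6 of 8 were tested, and 6 of 6 were higher in NPP_solvent than in Sham_solvent with a median log2 fold change of 0.42, and 5 of 6 in Sham_herb with 0.40. The 2 most abundant of them per length were Grid1, a delta receptor subunit (1.48 ± 0.349 FPKM), and Grin3a. Grin3a was 8.09 ± 0.347 CPM in NPP_solvent, 8.99 ± 1.66 in Sham_herb and 5.78 ± 1.28 in Sham_solvent (adjusted p = 0.755 for the first and adjusted p = 0.491 for the second against Sham_solvent). Auxiliary subunits of AMPA and kainate receptors were higher for 13 of 18 genes in NPP_solvent and 15 of 18 in Sham_herb, both against Sham_solvent, with medians of 0.24 and 0.24. The most abundant were Olfm1 (73.9 ± 5.95 FPKM), a secreted protein that associates with AMPA receptors, and Cacng7, a transmembrane AMPA receptor regulatory protein (25.9 ± 4.44 FPKM).

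Genes of scaffolds, trafficking and editing were higher for 10 of 15 in NPP_solvent and 14 of 15 in Sham_herb, with medians of 0.08 and 0.10, and were led by Nsf, which recycles AMPA receptors to the membrane (111.6 ± 11.9 FPKM), and Gripap1 (28.1 ± 2.05 FPKM). Metabotropic glutamate receptors were higher for 4 of 6 tested genes in both comparisons, and were led by Grm7 (4.12 ± 0.515 FPKM) and Grm4 (2.53 ± 0.477 FPKM), which inhibit release from terminals. Genes of glutamate synthesis, release and uptake were higher for 4 of 11 in NPP_solvent and 7 of 11 in Sham_herb, with medians of -0.02 and 0.02, and were led by the transaminases Got2 (165.6 ± 7.12 FPKM) and Got1 (97.7 ± 6.71 FPKM). These counts are to be read against 51.3% and 50.7% of all genes being higher in the same comparisons. Between NPP_herb and NPP_solvent the same lists were higher for 3 of 6, 12 of 18, 8 of 15, 4 of 6 and 8 of 11 genes, with medians between 0.00 and 0.05.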

How the data were processed

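Messenger RNA was captured on beads, prepared with a KAPA stranded kit and read from both ends on a NovaSeq instrument, per the labels' protocols. Per the submitters' processing notes, HISAT2 and DESeq2 were used with the build mRatBN7.2. No counter, strand setting or annotation is given in the sources used here, and overlapping or antisense genes may therefore share reads. The authors deposited raw read counts per gene and FPKM values, which they scaled by gene length and library size. From the counts, genes kept by filterByExpr (17043 of 25678) were tested in edgeR 4.0.16 by quasi-likelihood (R 4.3.3; TMM factors 0.946 to 1.04; robust dispersion), with 18 libraries in 1 model of 6 group terms and 12 residual degrees of freedom. P-values were adjusted by Benjamini and Hochberg's method across the genes tested, and calls were made at 0.05. DESeq2 1.42.0 and limma 3.58.1 on log2(FPKM + 0.1) or log2(FPKM + 1) were alternatives, beside other scaling, no filter, covariates and each library left out. CPM values are TMM-scaled counts, as mean ± SD over 3 libraries. Libraries of a group had a median correlation of 0.977 (log2 CPM), and all pairs differed by more than sampling noise (chi-square per degree of freedom at least 12.9). Scripts were tested on simulated data. The members and gene lists were chosen with earlier results of these data known. All members were named whatever their values, with log2 fold changes for the 3 smallest p-values of a comparison; from each list the 2 genes of highest mean FPKM were named, and for the leading gene of each family the 3 genes of highest Pearson r with a mean of at least 1 CPM. The levels given for Camk2a and the values of Grin2a to Grin2d, Grin3b and single markers were chosen after they were seen. Promoter windows of 250 bases are those of RefSeq on GRCr8.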

Additional observations from a re-analysis of the deposited data

How the results depend on the processing

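No member passed the adjusted threshold in a comparison of groups under any of the alternatives run. Of 2010 recomputed member values, 1864 kept their side of the threshold and, where a direction exists, their direction. Of these 1864, 290 came from the test of any difference among the 6 groups. That test has no direction, so its values and pairs could not change sign. Sign changed for 146 values, in 44 of 100 pairs of member and comparison. All of these 44 pairs had a log2 value of at most 0.262 in size. The smallest adjusted p of a member was 0.0961.

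Counts over all genes moved more. In place of 0, DESeq2 called 1 gene for NPP_herb against NPP_solvent, 2 for NPP_herb against Sham_herb, 35 for Sham_solvent against Ctrl_solvent, 471 for Ctrl_solvent against Ctrl, 3 for the difference of herb effects, 2 for the averaged herb effect and 475 for any difference among the groups. A Y-linked covariate gave 1 for NPP_herb against Sham_herb. For Ctrl_solvent against Ctrl, no low-count filter, limma on log2(FPKM + 0.1), limma on log2(FPKM + 1) and the length slope covariate gave 1 each. With each library left out, the calls ran from 0 to 485 for Sham_herb against Sham_solvent (485 without Sham_solvent replicate 2), 0 to 2 for NPP_herb against Sham_herb, 0 to 241 for Sham_solvent against Ctrl_solvent, 0 to 719 for Ctrl_solvent against Ctrl, 0 to 1 for the difference of herb effects and 0 to 305 for any difference (241, 719 and 305 without Ctrl_solvent replicate 2). Grin1 in Sham_solvent against Ctrl_solvent ran from -0.204 to 0.04. The cause was not tested.

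The Grik1 share between NPP and Sham was 0.43 points from raw counts and -1.13 to 0.417 with libraries left out. For the length slope, the coefficients with total reads as a further term were -0.01 for Grik1, -0.056 for Grik4 and -0.076 for Grin1. With libraries left out, Grik5 ran from -0.057 to 0.09 and the genes called from 2836 to 4806. For total reads, 1 gene was called without group terms, 477 with both measures and 245 to 2030 with libraries left out.

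No clear pairing of samples by replicate number was seen. Over 45 same-numbered pairs the correlation of deviations from the group means ran from -0.282 to 0.231, and 9 were over 0.1. Of 18 libraries, 4 correlated best with their own number. The labels do not say what a number marks. With 3 libraries per group these correlations cannot tell whether same-numbered samples share a batch or day. The replicate block changed no call of a member except Grik1 with total reads (adjusted p = 0.0508).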
